A study of Homo sapiens with 3 samples.

Results

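PANC-1, an established human pancreatic ductal carcinoma cell line, was treated with 200 μM ginsenoside Rg3, a saponin of ginseng with a steroid-like core, for 24 h, and its RNA was compared with that of untreated cells grown in the same medium. Of the 51136 genes in the deposited table, the 16487 that reached 10 counts in the control or the Rg3 library were compared. Each condition is 1 library, control or Rg3, and another library from cells given 50 μM tamoxifen (TAM) for 24 h shares the same control. The study set these libraries against each other to look at angiogenesis-related genes, while the description here runs over all genes and over pathways of other kinds. The labels do not say whether a library pooled several cultures.

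The control library held 11300766 counted reads and the Rg3 library 12861693. With TMM scaling, a gene at equal level in both had 1.26 counts in the Rg3 library for each count in the control library. A log2 fold change is the Rg3 level against the control level on that scale, and counts under 3 were raised to 3. With 1 library a side no difference has a replicate check and no p-value is given. The exact 95% intervals (Clopper-Pearson) cover counting error only, not the variation between cultures. A gene was called higher with a fold over 1.5, or lower with a fold under 0.67, where its interval did not reach a log2 fold change of 0. By this rule 3394 genes (20.6%) were higher and 2720 (16.5%) were lower in the Rg3 library. These percentages are the background against which the counts of each gene list are read. With scaling by library totals in place of TMM every log2 fold change was 0.15 higher, and 4456 genes were higher and 1807 were lower, so that the split between the directions depends on the scaling.

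Fold changes followed base composition. Across the 12080 genes with at least 50 counts and a known transcript, Spearman's rho of the log2 fold change with GC content was -0.80, and with transcript length it was 0.19, where the points are genes of the same 2 libraries and carry no p. For the TAM library against the same control, rho with GC content was 0.50. In the tenth of genes with the lowest GC content (29.6% to 38.9%) the median log2 fold change was 0.82 and 70.8% of genes were higher. In the tenth with the highest (61.4% to 74.5%) it was -0.67 and 55.2% were lower. Each result is therefore given a second time with a smooth trend on GC content and length removed, called the trend-removed value, for the 15013 genes with a GC value. Where 2 values stand together in brackets, the first is the log2 fold change before the removal and the second the one after it. After removal 1089 genes (7.25%) were higher and 948 (6.31%) were lower. Of the 3206 higher genes with a GC value, 716 stayed higher, and of the 2518 lower genes, 662 stayed lower. No gene went from a call in one direction to a call in the other. What set the trend was not tested.

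**Figure D1:**
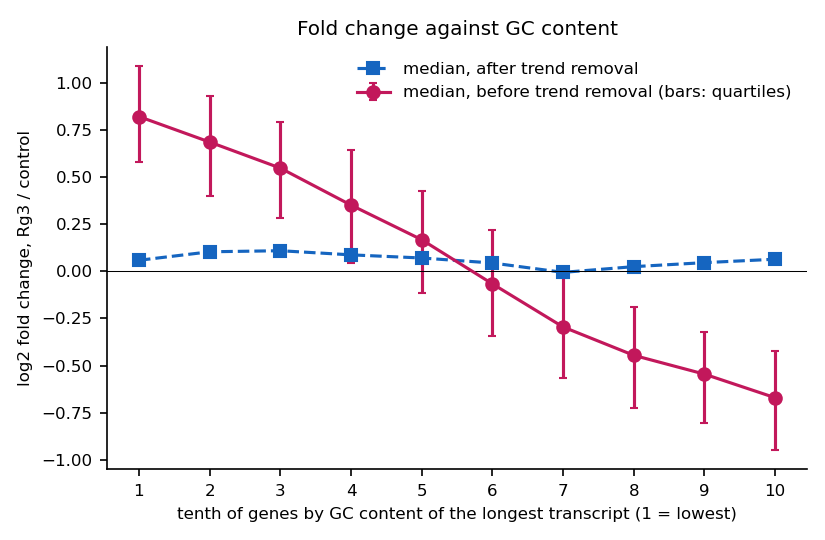
Median log2 fold change of the Rg3 against the control library (y axis) in 10 equal groups of genes ordered by GC content of the longest transcript (x axis, 1 is the lowest). Circles with bars are medians and quartiles before trend removal and fall from 0.82 to -0.67, while squares are the medians after it and lie between -0.0047 and 0.11.

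The cells carried 7 of 9 transcripts looked for under their label. Of these ductal and epithelial markers, the keratins KRT8, KRT18, KRT19 and KRT7 and SOX9, MUC1 and EPCAM were compared, with KRT8 at 15329 counts in the control and 7817 in the Rg3 library, whereas CFTR had no counts in either. These markers together took 0.253% of the control reads and 0.129% of the Rg3 reads, and 5 of them were lower (trend-removed, 3). The 11 acinar markers had no counts in either library. Of 7 endocrine markers CHGB alone was compared, of 9 immune markers CD68 and CD14, of 7 endothelial markers KDR, and of 9 fibroblast markers COL1A1, COL3A1 and THY1, while PTPRC, CDH5 and PDGFRA were at 0 in both libraries. CHGB with 93 and 61 counts and CD14 with 97 and 46 were lower in both forms.

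Cholesterol is made from acetyl-CoA by a chain of enzymes whose genes are controlled together by SREBP2, a transcription factor held in the endoplasmic reticulum by SCAP and INSIG when sterols are plentiful. When sterols in that membrane fall, SREBP is cut by the site-1 and site-2 proteases and moves to the nucleus, where it raises the enzymes of sterol and fatty acid synthesis and the machinery of sterol uptake. Oxysterols act in the opposite sense through the LXR receptors, which raise the exporters ABCA1 and ABCG1. The genes of the first program led the Rg3 library. Across 3 lists, of synthesis enzymes, of sensors and sterol uptake, and of fatty acid synthesis, 38 of the 50 members compared were higher and 3 were lower, against a background of 20.6% and 16.5%. After trend removal 36 were higher and 2 were lower, against 7.25% and 6.31%, and 34 were higher in both. Of the 10 largest trend-removed values among genes with at least 100 counts, 9 belonged to these lists. The lists were chosen with earlier results of these data known, so these counts are a description and not a test.

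SREBPs act together with NF-Y, which binds the letters CCAAT, and the promoters of the most changed members are shown with those letters in capitals on either strand. Each is the 250 bases before a RefSeq gene start on GRCh38.p14, 5′ to 3′ on the strand of the gene, and where a gene has several starts the window with the most matches is shown.
MSMO1, chr4:165327419-165327668, plus strand: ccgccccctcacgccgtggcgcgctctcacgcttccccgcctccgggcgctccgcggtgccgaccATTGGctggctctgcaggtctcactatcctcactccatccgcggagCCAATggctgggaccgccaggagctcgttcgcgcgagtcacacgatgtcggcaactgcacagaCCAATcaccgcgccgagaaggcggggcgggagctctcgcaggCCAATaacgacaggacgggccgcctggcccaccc
HMGCS1, chr5:43313413-43313662, minus strand: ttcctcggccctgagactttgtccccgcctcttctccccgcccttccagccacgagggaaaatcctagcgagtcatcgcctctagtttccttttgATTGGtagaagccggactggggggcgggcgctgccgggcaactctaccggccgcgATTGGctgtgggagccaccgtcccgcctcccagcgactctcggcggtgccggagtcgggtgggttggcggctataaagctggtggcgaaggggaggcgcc
MVD, chr16:88663092-88663341, minus strand: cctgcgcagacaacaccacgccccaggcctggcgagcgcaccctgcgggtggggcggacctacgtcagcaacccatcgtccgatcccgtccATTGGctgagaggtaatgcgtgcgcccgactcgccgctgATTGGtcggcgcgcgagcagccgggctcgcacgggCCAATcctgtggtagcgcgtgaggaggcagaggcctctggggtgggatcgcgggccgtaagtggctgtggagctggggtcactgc
IDI1, chr10:1048887-1049136, minus strand: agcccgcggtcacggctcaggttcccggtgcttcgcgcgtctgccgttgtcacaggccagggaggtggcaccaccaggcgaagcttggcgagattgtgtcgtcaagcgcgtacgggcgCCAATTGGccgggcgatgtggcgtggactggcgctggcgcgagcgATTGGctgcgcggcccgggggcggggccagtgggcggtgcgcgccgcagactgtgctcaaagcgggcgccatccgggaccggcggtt
INSIG1, chr7:155297628-155297877, plus strand: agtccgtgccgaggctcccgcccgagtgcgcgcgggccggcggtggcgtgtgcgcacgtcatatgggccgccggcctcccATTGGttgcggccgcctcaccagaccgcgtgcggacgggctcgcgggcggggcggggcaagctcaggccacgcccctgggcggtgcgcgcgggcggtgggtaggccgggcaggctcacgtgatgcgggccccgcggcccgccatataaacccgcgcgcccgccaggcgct
The counts of CCAAT matches on both strands were 4 in MSMO1, 2 in HMGCS1, 3 in MVD, 3 in IDI1, of which 2 overlap, and 1 in INSIG1. Another start of HMGCS1 and another of IDI1 had no CCAAT in their windows, and a further window of IDI1 had 2. Windows were found for 16 of the 21 cholesterol synthesis genes, and 15 of their 21 windows (71.4%) held CCAAT, against 32.9% of the 14622 windows of genes compared and 11240 of all 35116 windows. The sterol regulatory element that SREBPs bind was searched by the letters TCACNCCAC. These letters were in none of the 21 windows of the enzymes and in 0.841% of the windows of genes compared. Of the 13 genes of the sensing list, 11 had windows, 14 in all. Of these genes 1 held the letters, SREBF2, the gene of SREBP2 itself, where they are in capitals. In the fatty acid list 15 of 17 genes had windows, and 1 of 25 windows held them, at a start of ACSL1, which was not called (0.48 and 0.22).
SREBF2, chr22:41832855-41833104, plus strand: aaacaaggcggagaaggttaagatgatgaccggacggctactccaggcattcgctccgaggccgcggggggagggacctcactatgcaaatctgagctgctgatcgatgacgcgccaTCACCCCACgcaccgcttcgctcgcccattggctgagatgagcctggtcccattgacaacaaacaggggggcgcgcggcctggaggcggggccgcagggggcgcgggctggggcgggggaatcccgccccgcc
A match is a description of letters and not of binding, and the absence of a match in these 250 bases says nothing of sites elsewhere.

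Of the 21 cholesterol synthesis enzymes, 19 were higher and none was lower, with a median log2 fold change of 1.64, against 0.04 over all genes compared. The median was 2.06 after trend removal, against 0.06 over all genes, again with 19 higher and none lower. Together they took 0.164% of the counted reads in the control library and 0.589% in the Rg3 library. The enzymes that condense acetyl-CoA ranked among the most changed. ACAT2, the cytosolic thiolase, had 849 counts in the control and 4919 in the Rg3 library, a log2 fold change of 2.20 (interval, 2.10 to 2.31). HMGCS1, which makes HMG-CoA, went from 291 to 3776 counts, a fold of 10.3. Both intervals lay far above no change. In bulk RNA, a change in the number of cells that express a gene and a change in RNA per cell cannot be told apart.

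The enzymes that turn mevalonate into squalene were less even. MVK, the mevalonate kinase, had 311 and 977 counts (log2 fold change, 1.32), whereas PMVK, the next kinase, had 1479 and 1442 counts and was not called (-0.37 and 0.18). MVD, the decarboxylase that follows, had 503 and 2664 counts, with a trend-removed log2 fold change of 2.79. IDI1, the isomerase, had 333 and 3595 counts, a fold of 8.56. FDPS and FDFT1, which build farnesyl diphosphate and squalene, had 1786 and 7014 counts and 1470 and 6223 counts, with folds of 3.12 and 3.36. PMVK thus stood apart from neighbours on both sides of it in the pathway.

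In the sterol branch SQLE, the epoxidase that commits squalene to sterols, had 594 and 3628 counts, and LSS, which closes the rings, had 1517 and 5692 counts, with folds of 4.85 and 2.98. MSMO1, the C4-methyl oxidase, had the largest fold of the list, from 122 counts to 1970, at 12.8 (log2 interval, 3.41 to 3.96) and a trend-removed fold of 8.02. SC5D, which places a ring double bond, had 176 and 1615 counts, a fold of 7.28. DHCR7, a late reductase, had 2115 and 7513 counts, a fold of 2.82. NSDHL, EBP and HSD17B7 were higher with smaller folds of 2.01 to 2.31. The sterol C14 bond can be reduced by either TM7SF2 or LBR, and their calls depended on the trend. TM7SF2, of GC content 64.2%, was at 0.26 and became higher at 0.99 after trend removal, while LBR, of GC content 37.8%, was higher at 0.81 and lost the call at 0.07. CYP51A1, the demethylase, had 215 and 1297 counts, but 88.9% of its stretches of 50 bases recur in other genes, and its pseudogenes CYP51A1P2 (24 and 194 counts) and CYP51A1P1 (33 and 217 counts) were higher too, so that how these reads were split among the copies is uncertain. Whether the counting used strand was not stated, so reads of genes that overlap on opposite strands cannot be told apart. ACAT2 overlaps TCP1, SOD2 and SOD2-OT1 on the opposite strand, of which TCP1 was not called (0.29), while MVK lies against MMAB, which was higher (0.60). HMGCS1 and IDI1 overlap AC114947.2 and IDI2-AS1 in the same way. Values of SOD2, SOD2-OT1, AC114947.2 and IDI2-AS1 are not given here.

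**Figure D2:**
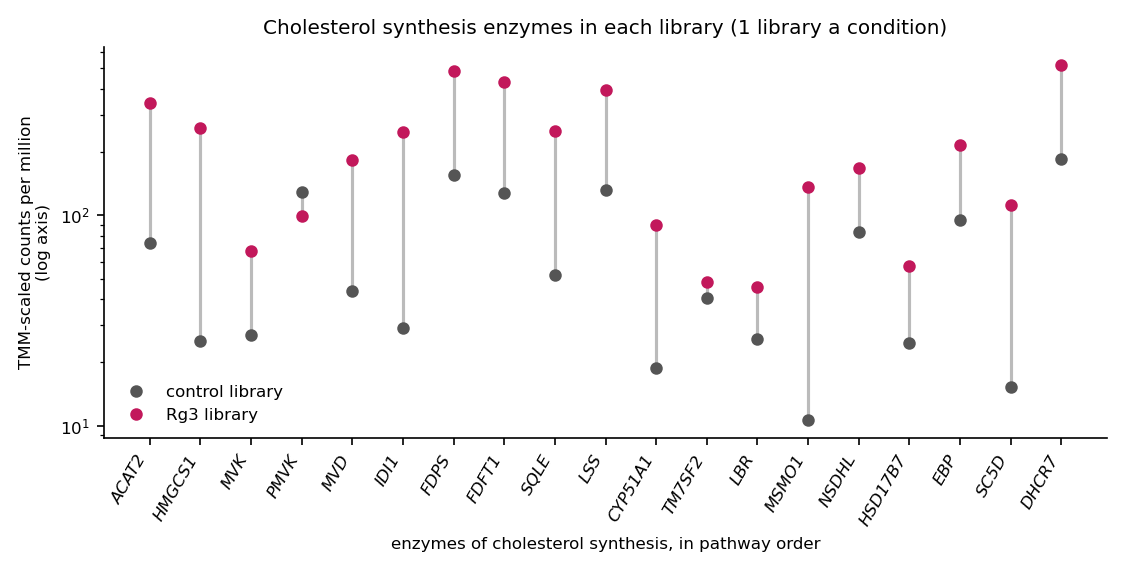
TMM-scaled level in CPM (log y axis) of 19 of the cholesterol synthesis enzymes in pathway order, with the control library in grey and the Rg3 library in red, 1 library each. The Rg3 point lies above the control point for each enzyme shown apart from PMVK, with the widest gaps at MSMO1, HMGCS1 and IDI1.

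Among the genes of sterol sensing and uptake, 6 of 12 were higher and 2 were lower, with a median log2 fold change of 0.62 (trend-removed, 6 and 1, median 0.70). INSIG1, which holds SCAP in the endoplasmic reticulum and is itself an SREBP target, had 355 and 3291 counts, a log2 fold change of 2.88 (2.72 to 3.04). Its paralog INSIG2 had 66 and 205 counts and was higher at 1.30, but not after trend removal at 0.46. SREBF2 had 1941 and 3296 counts and was not called at 0.43, and after trend removal it was higher at 0.94 (0.86 to 1.02). SREBF1, which encodes the form that favours fatty acid genes, went the other way, with 3722 and 2444 counts and a log2 fold change of -0.94, and was not called after trend removal at -0.22. SCAP and the proteases MBTPS1 and MBTPS2 were not called in either form. MYLIP, a ubiquitin ligase driven by LXR, was lower in both forms, with 93 and 66 counts (-0.83 and -1.01). STARD4, a sterol carrier, TMEM97 and LPIN1, a phosphatidate phosphatase, were higher with folds of 6.54, 3.86 and 4.82.

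Of 17 genes of fatty acid synthesis, 13 were higher and 1 was lower, with a median log2 fold change of 1.51 (trend-removed, 11 and 1, median 1.40). SCD, the stearoyl-CoA desaturase, held 10093 counts in the control and 44377 in the Rg3 library, a fold of 3.49. FASN, the fatty acid synthase, had 5808 and 14977 counts, a log2 fold change of 1.03, or 1.87 after trend removal of its GC content of 65.3%. ACLY and ACSS2, which supply acetyl-CoA from citrate and from acetate, had 3250 and 9619 counts and 271 and 1172 counts, with trend-removed folds of 2.83 and 4.58. The desaturases FADS1 and FADS2 and the elongase ELOVL6 were higher at 1.51, 1.65 and 2.02. FADS1 and FADS2 overlap on opposite strands, and reads of one cannot be told from the other's. ACACA, the carboxylase that makes malonyl-CoA, had 1060 and 1919 counts and missed the fold limit at 0.52 (0.41 to 0.63), and TECR, the last enzyme of the elongation cycle, was lower at -0.66 with 1491 and 1191 counts. All 17 genes of this list took 0.251% of the control reads and 0.715% of the Rg3 reads.

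The genes of sterol export and storage did not move as a group. Of 13 compared, 3 were higher and 7 were lower, and after trend removal 4 were higher and 2 were lower, with medians of -0.60 and -0.04. The 2 that stayed lower were the LXR-driven exporters. ABCA1 had 60 counts in the control and 10 in the Rg3 library, a log2 fold change of -2.92 (-4.05 to -1.94), and ABCG1 had 19 and 6 counts, with an interval of -3.61 to -0.62. The LXR genes NR1H3 and NR1H2 and APOE were lower before and not called after trend removal. The proteins that free cholesterol in the lysosome were on the other side. LIPA, the acid lipase, had 504 and 1395 counts and NPC2, which carries cholesterol to the lysosomal membrane, 642 and 1647, and both were higher at 1.13 and 1.03 (trend-removed, 0.73 and 0.75). NPC1, which takes it through that membrane, had 591 and 1112 counts and was called after trend removal alone (0.58 and 0.72). In the TAM library, set against the same control, ABCA1 was also low with 5 counts and a log2 fold change of -3.38, while MSMO1 had 120 counts (0.18), HMGCS1 164 (-0.62), INSIG1 244 (-0.33) and SCD 3112 (-1.49). Against that control, 6 of the 21 cholesterol synthesis enzymes were higher in the TAM library and 1 was lower. ACAT2 was at 1581 counts (1.10) and MVD at 881 (1.02). No share of all genes called in the TAM library is given, so these counts have no background. The TAM values keep their trend on GC content (rho, 0.50). Their median was -0.53 in genes of GC content 29.6% to 38.9% and 0.41 in genes of 61.4% to 74.5%. The GC content was 50.2% for ACAT2, 63.7% for MVD and 40.2% for HMGCS1. How much of these TAM values follows GC content was not tested.

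**Figure D3:**
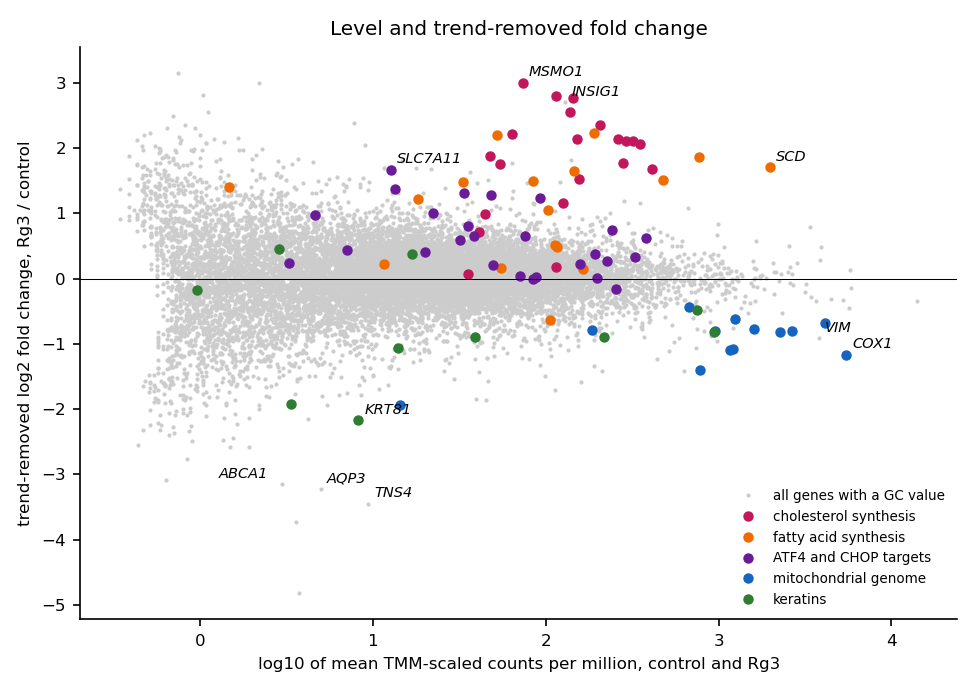
Trend-removed log2 fold change (y axis) against the log10 mean level of the control and Rg3 libraries (x axis) for the 15013 genes with a GC value, in grey, with 5 lists in colour. Members of the cholesterol list reach 3.00 at MSMO1, the mitochondrial genes lie between -1.94 and -0.44, and TNS4, AQP3 and ABCA1 lie below -3, while genes of few counts spread widest, from -4.82 to 3.15.

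ATF4 is translated when the eukaryotic initiation factor eIF2α is phosphorylated under amino acid, haem or endoplasmic reticulum stress, and it raises genes of amino acid supply and, through DDIT3 (CHOP), of cell death. Its sites, called CARE, hold the letters TGATGNAA, which are in capitals on either strand in the 250 bases before the starts of ASNS and CHAC1. Windows were found for 22 of the 26 genes of this list. Of these 34 windows, 4 (11.8%) held the letters, against 1.63% of those of genes compared.
ASNS, chr7:97872409-97872658, minus strand: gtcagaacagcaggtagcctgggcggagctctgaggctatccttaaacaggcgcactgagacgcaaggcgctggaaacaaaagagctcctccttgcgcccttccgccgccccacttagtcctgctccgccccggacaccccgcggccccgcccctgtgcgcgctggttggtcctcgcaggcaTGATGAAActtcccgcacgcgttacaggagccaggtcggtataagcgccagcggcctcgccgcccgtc
CHAC1, chr15:40953221-40953470, plus strand: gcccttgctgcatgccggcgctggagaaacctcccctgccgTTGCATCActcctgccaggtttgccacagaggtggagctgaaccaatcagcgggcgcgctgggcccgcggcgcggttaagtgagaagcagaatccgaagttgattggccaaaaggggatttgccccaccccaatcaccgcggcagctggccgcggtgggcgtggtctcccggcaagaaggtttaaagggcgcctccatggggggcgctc
Of 26 ATF4 and CHOP targets, 9 were higher and none was lower, with a median log2 fold change of 0.20. After trend removal 13 were higher, none was lower, and the median was 0.52.

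SLC7A11, the cystine importer, had the largest fold, with 43 counts in the control and 312 in the Rg3 library (2.53 and 1.67). ASNS, the asparagine synthetase, had 607 and 1906 counts (1.32 and 1.23), although 82.0% of its stretches recur in other genes. DDIT3 itself had 228 and 680 counts (1.24 and 1.31). CHAC1, which degrades glutathione, and TRIB3, a pseudokinase that restrains ATF4, were higher at 0.70 and 0.63, with trend-removed values of 1.38 and 1.28. ATF4 had 4200 and 5755 counts and was not called at 0.12, reaching 0.62 after trend removal, and the transporters SLC7A5 and SLC3A2 were not called in either form. The endoplasmic reticulum branch differed in its counts. Of 24 chaperones and genes of the unfolded protein response, 4 were higher, and after trend removal 1 was, DNAJB9 with 24 and 79 counts, with a median of -0.01. HSPA5, the chaperone BiP, had 5293 and 8027 counts and a log2 fold change of 0.27 (trend-removed, 0.09), and XBP1 and ATF6 were not called.

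The other stress lists had members called in both directions before trend removal. Their counts after it stand against 7.25% of all genes higher and 6.31% lower. Of 20 NRF2 targets, 8 were higher and 3 were lower (trend-removed, 5 and 1). NFE2L2, the gene of NRF2, had 473 and 1208 counts (1.02 and 0.82), TXNRD1, the thioredoxin reductase, 1575 and 4826 counts (1.28 and 1.00) and PGD, of the pentose phosphate pathway, 2280 and 5275 counts (0.88 and 1.18). ABCC3, a conjugate exporter also counted as an NRF2 target, was lower, with 796 and 317 counts (-1.66 and -1.21). HMOX1, the haem oxygenase, had 376 and 374 counts and was not called. Among 20 heat shock genes 8 were higher and 2 were lower (trend-removed, 3 and 0), among them the chaperone HSP90AA1 with 4363 and 13669 counts (1.31 and 1.08) and the cochaperone DNAJB4 with 44 and 190 (1.78 and 0.87). Among 15 genes of iron handling and lipid peroxidation, 5 were higher and 1 was lower (trend-removed, 4 and 0). ACSL4 is counted here and in the fatty acid list. TFRC, the transferrin receptor, had 1899 and 6212 counts (1.38 and 0.85) and ACSL4, which loads polyunsaturated fatty acids into lipids that peroxidize, 522 and 2309 counts (1.81 and 1.05), while STEAP3, a ferrireductase, was lower before removal with 2258 and 1357 counts (-1.07 and -0.56). Of 16 p53 targets, 5 were higher and 1 was lower (trend-removed, 6 and 0, median 0.47), and CDKN1A, the cell-cycle inhibitor p21, had 948 and 1377 counts (0.20 and 0.76). Of 7 metallothionein and zinc export genes, 1 was higher and 4 were lower (trend-removed, 0 and 3), among them MT1A with 184 and 95 counts (-1.29 and -1.23), while MT1E had 586 and 891 counts and was not called.

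Autophagy genes leaned upward. Of 27 core genes and receptors, 12 were higher and none was lower, with a median of 0.37 (trend-removed, 6 and 0, median 0.27). MAP1LC3B, which coats the autophagosome, had 471 and 1241 counts (1.06 and 1.23), and TAX1BP1, a cargo receptor, 840 and 2191 counts (1.05 and 1.03). SQSTM1, the receptor p62, had 10375 and 15781 counts and was called after trend removal alone (0.27 and 0.83). Of 34 lysosome genes, 6 were higher and 5 were lower (trend-removed, 6 and 1). NEU1, the sialidase, had 531 and 1574 counts (1.23 and 1.47). CTSD, the cathepsin D protease, was lower with 10132 and 7222 counts (-0.82), but its trend-removed value was -0.10. TFEB, the factor that drives lysosomal genes, had 85 and 63 counts (-0.77 and -0.22).

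Most of the 13 protein genes of the mitochondrial genome were lower once the trend was removed. The 13 took 2.80% of the control reads and 1.92% of the Rg3 reads. Before trend removal 7 were lower and none was higher, with a median of -0.64, and after it 12 were lower, with a median of -0.81. COX1, the catalytic subunit of cytochrome oxidase, went from 83903 to 52154 counts, a fold of 0.493 and a trend-removed log2 fold change of -1.16. ND2 had 12098 and 7349 counts (-1.05 and -1.40) and ND1 17857 and 10966 counts (-1.04 and -1.09), both subunits of complex I. ND6, the protein gene on the light strand, had 247 and 104 counts and the lowest value of the list (-1.58 and -1.94), and without strand its reads cannot be told from those of the transcript opposite it. ND3 was at 0.06 with 7559 and 9921 counts and was not called in either form. The nuclear genome holds copies of mitochondrial sequence, and 49.5% of the stretches of COX1 and 43.6% of those of ND2 recur in other genes. The 77 nuclear genes of the same respiratory complexes did not move with them, with 11 higher, 9 lower and a median of 0.07 (trend-removed, 4, 3 and 0.03). Glycolysis genes, with 3 higher and 5 lower of 20, had a median of -0.37 that came to 0.01 after trend removal. Of these, ALDOC, an aldolase, was higher with 153 and 435 counts (1.17 and 1.67).

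**Figure D4:**
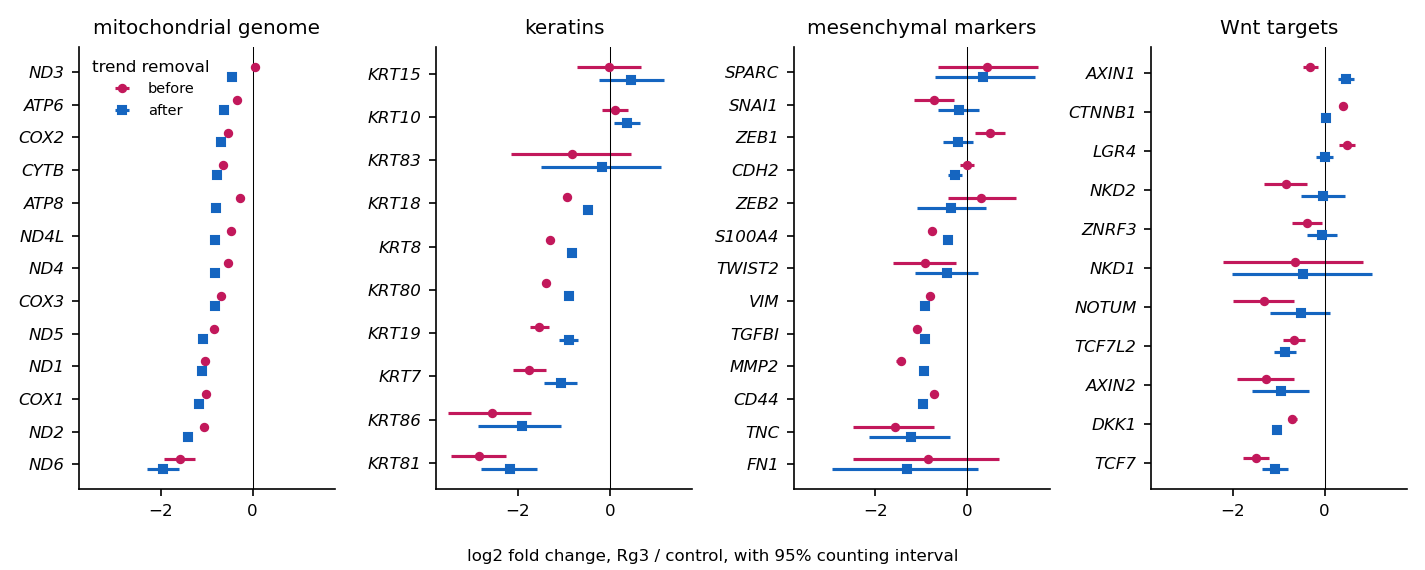
Log2 fold change of the Rg3 against the control library (x axis) with 95% counting intervals for members of 4 lists, before (circles) and after (squares) trend removal. In the mitochondrial panel 12 of 13 genes lie left of the fold limit after removal, from ND6 at -1.94 to ATP6 at -0.62, and KRT81 and KRT86 lie lowest among the keratins.

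Keratins, the intermediate filaments of epithelial cells, were lower. Of 10 compared, 7 were lower and none was higher, with a median of -1.35 (trend-removed, 6 and 0, median -0.85). The simple-epithelium pair KRT8 and KRT18 had 15329 and 7817 counts (-1.31 and -0.82) and 11216 and 7406 counts (-0.93 and -0.47), so that KRT18 lost the call. Their genes overlap on opposite strands, and 22.1% and 21.7% of their stretches recur elsewhere. KRT19 had 665 and 290 counts (-1.53 and -0.90), KRT7 248 and 93 (-1.75 and -1.07) and KRT80 3637 and 1738 (-1.40 and -0.89). KRT81 had 165 and 29 counts (-2.84 and -2.17) and its near copy KRT86 66 and 14 (-2.57 and -1.91), and 44.6% and 40.5% of their stretches recur elsewhere. VIM, the vimentin filament of mesenchymal cells, was lower as well, with 55276 and 39783 counts (-0.81 and -0.91). Among 13 mesenchymal markers 8 were lower and none was higher, with a median of -0.76 (trend-removed, 5 and 0, median -0.45), including CD44 with 7874 and 5989 counts (-0.73 and -0.97), MMP2, a gelatinase, with 2576 and 1191 (-1.45 and -0.94) and TGFBI with 9158 and 5439 (-1.09 and -0.92). Of 22 epithelial junction genes, 3 were higher and 6 were lower (trend-removed, 0 and 4), and CDH1, E-cadherin, had 76 and 39 counts (-1.30 and -1.28), CDH3, P-cadherin, 54 and 19 (-1.84 and -1.47) and CLDN7, a claudin, 697 and 302 (-1.54 and -0.94).

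Of genes that reached 100 counts in the control or the Rg3 library, TNS4 and AQP3 had the lowest values in both forms. TNS4, a tensin of focal adhesions, had 203 counts in the control and 16 in the Rg3 library, a fold of 0.0625, with a log2 interval of -4.83 to -3.26 and a trend-removed log2 fold change of -3.45. AQP3, a water and glycerol channel, had 107 and 10 counts (-3.75 and -3.22). The other 16 compared members of the focal adhesion list lay far from TNS4, and after trend removal 1 of them, PARVB, with 500 and 332 counts (-0.92 and -0.61), was lower. B3GNT7, a glycosyltransferase, had 2162 and 526 counts (-2.37 and -1.70), H19, an imprinted long noncoding RNA, 772 and 166 (-2.55 and -1.84), GRHL3, an epithelial transcription factor, 159 and 48 (-2.06 and -1.79), and CX3CL1, the chemokine fractalkine, 133 and 37 (-2.18 and -1.75). NKAIN4 and HR, a nuclear corepressor, were also among the 10 lowest in both forms. U2AF1, a splicing factor, had 755 and 345 counts (-1.46 and -1.87), with 98.9% of its stretches also in other genes. At the other end, RPL18P3, a ribosomal protein pseudogene with 8 and 201 counts, had the highest log2 fold change of genes with at least 100 counts (4.32, interval 3.31 to 5.55), no GC value, and 185 counts in the TAM library. As a near copy of an expressed gene its reads are uncertain.

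Of the signalling lists, Wnt, TGF-β and Notch genes had more lower than higher members. Of 26 NF-κB and chemokine genes, 6 were higher and none was lower, with a median of 0.09 (trend-removed, 4 and 0, median 0.21). The shares over all genes were 20.6% higher and 16.5% lower, or 7.25% and 6.31% after trend removal. Of 11 Wnt targets, 6 were lower and none was higher, with a median of -0.67 (trend-removed, 4 and 0, median -0.47). TCF7 and TCF7L2, transcription factors of the pathway, had 335 and 151 counts (-1.48 and -1.07) and 340 and 270 counts (-0.67 and -0.87), AXIN2, a feedback inhibitor, 67 and 35 (-1.27 and -0.94) and DKK1, a secreted antagonist, 2188 and 1697 (-0.70 and -1.03). CTNNB1, the gene of β-catenin, had 3022 and 5056 counts and was not called (0.41 and 0.02). Of 25 genes of TGF-β signalling, 4 were higher and 10 were lower (trend-removed, 1 and 4), with SMAD3 at 5671 and 4324 counts (-0.73 and -0.60) and PMEPA1 at 960 and 533 (-1.18 and -0.83) among the lower and ID2 at 195 and 369 (0.59 and 0.92) the one higher in both forms. Of 18 Notch genes, 3 were higher and 6 were lower (trend-removed, 1 and 3), the lower ones being JAG1, with 1179 and 726 counts (-1.03 and -0.96), NOTCH3 (-1.65 and -0.90) and NRARP (-1.40 and -0.60) in both forms. Of 10 glucocorticoid and steroid receptor targets, 3 were higher and 4 were lower (trend-removed, 2 and 4). TSC22D3, the glucocorticoid-induced leucine zipper, was higher with 285 and 801 counts (1.16 and 1.47), while SGK1, a kinase induced by the same receptor, was lower with 819 and 688 (-0.59 and -1.14).

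Collagens and matrix genes were lower in number, and much of this went with GC content. Of 23 collagen chains, of median GC content 60.3%, 2 were higher and 11 were lower, with a median of -0.57, and after trend removal 2 were higher, 6 were lower and the median was -0.03. The chains that stayed lower included COL3A1 with 214 and 89 counts (-1.60 and -1.35), COL6A3 with 116 and 42 (-1.80 and -1.51) and COL13A1 with 186 and 55 (-2.09 and -1.50). COL1A1 had 1853 and 1005 counts (-1.22 and -0.54, not called after removal) and COL18A1, with 9423 and 6327 counts, moved from -0.91 to -0.03. Of 17 matrix proteases and inhibitors, 1 was higher and 9 were lower (trend-removed, 1 and 2), the 2 being MMP2 and SERPINE2, a protease inhibitor with 57 and 31 counts (-1.21 and -1.77). Of 21 SRF-driven actin genes, 2 were higher and 10 were lower (trend-removed, 1 and 2), and ACTB, with 84159 and 57505 counts, was at -0.88 and -0.45.

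The mitosis and ZNF lists lay below the median GC content of all genes, 48.5%, and had fewer higher calls after trend removal. The DNA replication, tRNA synthetase, ribosomal protein and proteasome lists lay near it, with median GC contents of 47.7% to 47.9%. Of 34 mitosis genes, of median GC content 42.4%, 16 were higher and 2 were lower, with a median of 0.55, and after removal 1 was higher, none was lower and the median was 0.08. TOP2A, which untangles chromosomes, had 1738 and 4196 counts (0.94 and 0.27), MKI67, the proliferation marker, 3641 and 5377 (0.23 and 0.19) and CDC25C, a mitotic phosphatase that stayed called, 297 and 623 (0.73 and 0.69). Of 35 DNA replication genes, 2 were higher and 8 were lower (trend-removed, 0 and 2), the 2 being LIG1, a DNA ligase with 1074 and 529 counts (-1.36 and -0.86), and MCM5, a helicase subunit with 3029 and 1769 (-1.11 and -0.60). Of 389 ZNF genes, of median GC content 43.5%, 131 were higher and 39 were lower, and after removal 44 and 15. Of 20 cytosolic tRNA synthetases, 9 were higher and 3 were lower, and after removal 1 was higher, GARS, with 1675 and 3832 counts (0.86 and 0.89). The 82 cytosolic ribosomal proteins had a median of 0.03, with 8 higher and 2 lower (trend-removed, 4 and 1), and the 44 proteasome genes had a median of -0.01 (trend-removed, -0.0009).

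**Figure D5:**
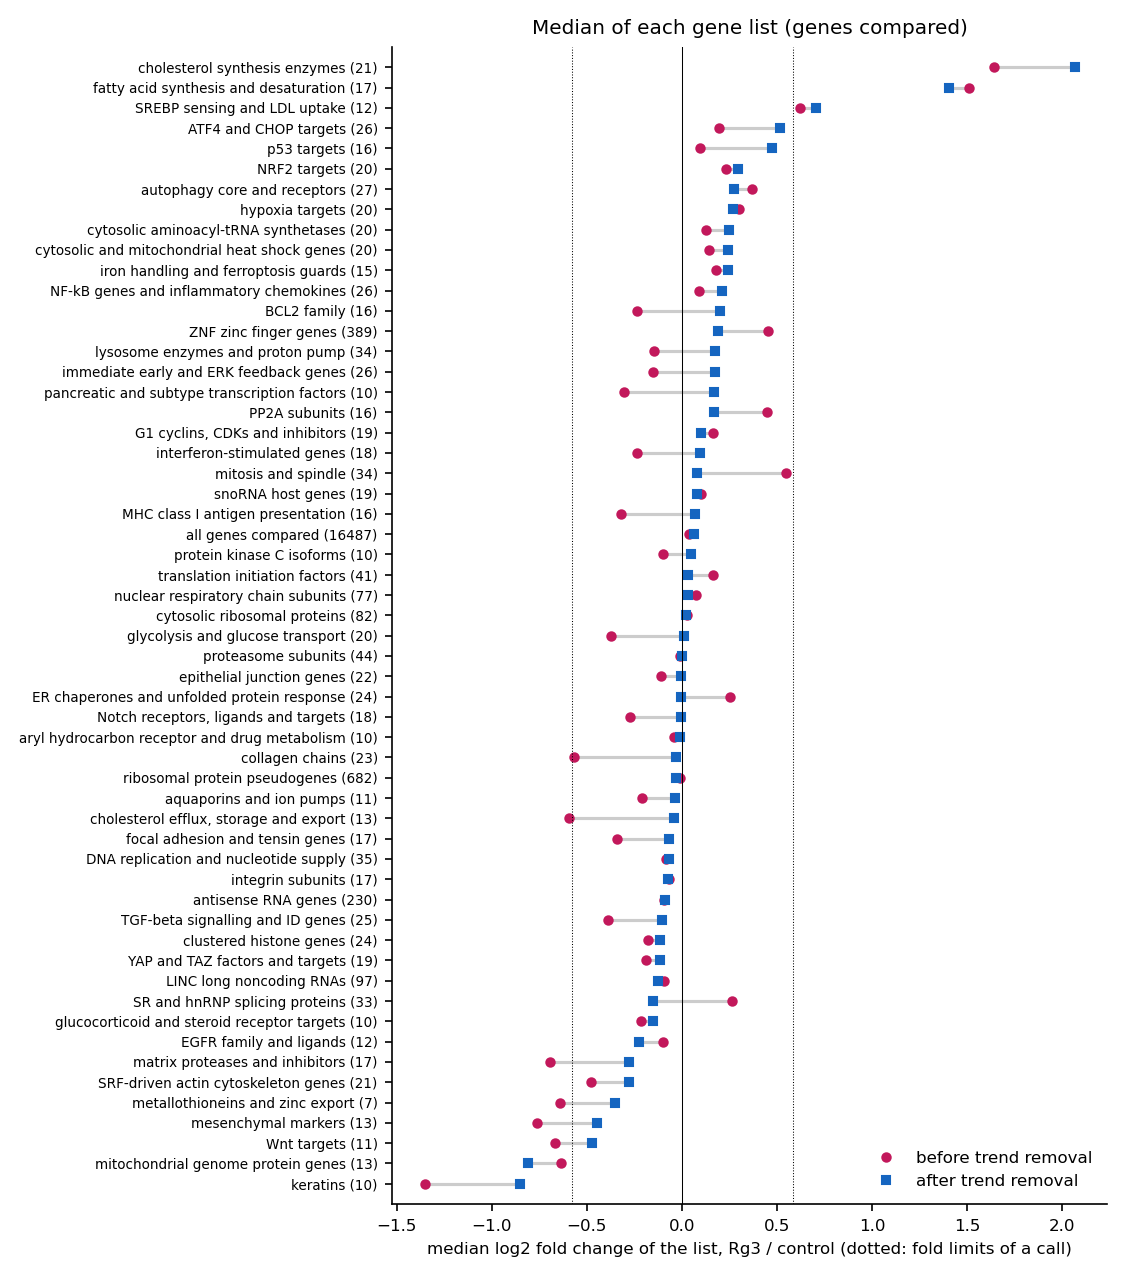
Median log2 fold change (x axis) of each of 55 gene lists and of all genes compared, with the number compared in brackets, before (circles) and after (squares) trend removal, and dotted lines at the fold limits of 1.5 and 0.67. After removal the cholesterol, fatty acid and SREBP sensing lists lie right of the upper limit and the keratins and mitochondrial genes left of the lower one, while the mitosis list moves from 0.55 to 0.08.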

How the data were processed

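PANC-1 libraries from control, Rg3-treated and TAM-treated cells were sequenced on an Ion Proton, 1 library a condition. The authors checked reads with FAST-QC, used TopHat for alignment, and deposited unnormalized counts of reads for each gene symbol. The submitters' processing notes name GRCh38, and the counting tool, annotation and strand setting are not given in the sources used here. Groups, doses and times were taken from the labels.

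Counts were scaled with TMM factors (edgeR 4.0.16, R 4.3.3), which were 1.01 for control and 1.12 for Rg3, over genes with at least 10 counts in any library. Genes with at least 10 counts in the control or Rg3 library were compared. Folds and exact 95% intervals were computed in Python 3.11.15 with SciPy 1.17.1. The limits of 1.5 and 0.67 are those of the methods, whose Limma test needs replicates and could not be fitted. Medians and counts stand in for a test of a list. A loess trend (span 0.3) was fitted on genes with at least 50 counts against GC content and log10 length of the longest GENCODE 29 transcript, found for 91.1% of genes compared, and centred at a median of 0. Gene overlap and stretches of 50 bases shared between genes came from the same annotation. Promoter sequences are from RefSeq (GRCh38.p14). The steps were run on simulated counts with known fold changes and a straight-line GC trend. That simulation held counting error only, with no length trend and no variation between cultures.

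The members and gene lists were chosen with earlier results of these data known. Named genes were the 10 highest and 10 lowest called genes with at least 100 counts in each form, up to 6 called members with at least 50 counts in each of 55 lists, the factor a list is named for, and markers. Other members, such as whole pathways given in order and exceptions within a list, were named after their values were seen, and several genes of the rule are given only in counts. Some members are not reported here by name. Alternatives were library totals, DESeq2 1.42.0 size factors, filters of 1 or 50 counts, other call rules, a trend on GC alone, and a biological coefficient of variation (BCV) assumed at 0.2.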

Additional observations from a re-analysis of the deposited data

How the results depend on the processing

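With 1 library a condition no replicate could be left out, and no interval includes culture-to-culture variation. No paired analysis was possible, since each condition is a single library. The genes higher and lower came to 1225 and 1005 with fold limits of 2 and 0.5, to 1089 and 948 after removal of the GC and length trend, and to 1078 and 968 after that of a GC trend alone. In edgeR with an assumed BCV of 0.2 they came to 92 and 130, and with the trend as an offset as well to 33 and 14, of which 24 of the 33 were in the lists of sterol synthesis, sensing and fatty acid synthesis. Library totals gave 1807 lower genes. DESeq2 size factors moved all values by 0.0072.

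Medians of the main lists crossed a fold limit or moved enough in these cases. Enough was at least 0.5 times the median width of their members' counting intervals. Library totals gave 1.79 for cholesterol synthesis, 1.65 for fatty acid synthesis, -0.45 for cholesterol efflux, -0.50 for metallothioneins, -0.49 for the mitochondrial genome, -0.52 for Wnt targets and -0.55 for matrix proteases. Removing the GC and length trend, or a GC trend alone, gave 2.06 and 2.05 for cholesterol synthesis, -0.0442 and -0.0547 for efflux, -0.35 and -0.35 for metallothioneins, -0.81 and -0.89 for the mitochondrial genome, -0.47 and -0.41 for Wnt targets, -0.85 and -0.85 for keratins, -0.45 and -0.40 for mesenchymal markers, and -0.28 and -0.26 for matrix proteases. A filter of 1 count gave -0.93 for keratins, and a filter of 50 counts gave 1.37 for fatty acid synthesis and -0.48 for efflux. Without members that share stretches, the medians were 1.41 for cholesterol synthesis, 0.87 for SREBP sensing and 1.03 for fatty acid synthesis. That setting was not run for metallothioneins, glycolysis, the mitochondrial genome, keratins and ribosomal proteins, where under 3 members were free of shared stretches. Of the named genes, 145 kept their call with the trend removed, 144 lost it and 13 changed sign. The values of these 13 came to -0.022 for SEL1L, -0.0423 for RB1, 0.11 for ARHGEF17, -0.0334 for CXCL8, -0.0194 for BIRC2, 0.12 for LTBP3, -0.20 for EREG, -0.0484 for AHR, -0.0189 for ITGAV, -0.24 for PSMD14, -0.0509 for SRSF3, -0.0025 for PPP2R5E and 0.11 for PRKD2, none of which was called.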

Other observations

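Growth factor and inflammatory genes gave scattered calls. Of 29 immediate early and ERK feedback genes, 26 were compared, 2 were higher and 3 were lower (trend-removed, 6 and 1). The phosphatase DUSP6, a brake on ERK, had 115 counts in the control and 275 in the Rg3 library (0.92 and 0.80 after trend removal), and SPRY4, an inhibitor of receptor signalling, 445 and 849 (0.60 and 0.74). Of 26 NF-κB and chemokine genes compared, 6 were higher and none was lower (trend-removed, 4 and 0). CCL20, a chemokine, had 11 and 70 counts (2.34 and 1.56) and IL18, a cytokine, 188 and 563 (1.25 and 0.65). MCL1, an antiapoptotic protein, was the member of the BCL2 family called in both forms, with 968 and 2215 counts (0.86 and 0.61).

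Of 17 integrin subunits, 4 were higher and 5 were lower (trend-removed, 2 and 4). ITGB4, the β4 subunit that binds laminin, had 683 and 269 counts (-1.68 and -0.92), ITGA10 170 and 84 (-1.35 and -1.03) and ITGAE, the αE subunit, 274 and 543 (0.65 and 1.08). Of 16 subunits of the phosphatase PP2A, 7 were higher and 1 was lower, and after trend removal 2 were higher, among them PPP2R5A, a regulatory subunit, with 131 and 343 counts (1.05 and 0.93). Of 33 SR and hnRNP splicing proteins, 5 were higher before and none after trend removal, while 4 were then lower, with HNRNPD, an AU-rich element binding protein, at 1319 and 1397 counts (-0.25 and -1.07). These lists' counts stand against the same shares of all genes, 20.6% higher and 16.5% lower, or 7.25% and 6.31% after trend removal.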
